A study of Mus musculus with 1086 samples.

Results

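The 129S1 liver was compared with the livers of the 7 other inbred strains that founded the Diversity Outbred mouse population. The 129S1 members were the 16 libraries whose labels and column names give that strain, out of 128 founder libraries in the table and 1086 sequencing records in the series. Their mean over both diets was set against the mean of AJ, B6, NOD, NZO, CAST, PWK and WSB. A further 110 libraries of those strains entered, after 1 library labelled B6 and 1 labelled NOD, each nearer to the other's strain by correlation, had been left out.

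The series holds liver mRNA sequencing of the outbred mice, not analysed here, and of their founders. All founder animals were males from The Jackson Laboratory, with 8 per strain and diet. The strains are 129S1/SvImJ, A/J (AJ), C57BL/6J (B6), NOD/ShiLtJ (NOD), NZO/HILtJ (NZO), CAST/EiJ (CAST), PWK/PhJ (PWK) and WSB/EiJ (WSB). They ate a control diet with 17% of its energy from fat, called chow here, or a diet rich in fat and sucrose with 45%. Mice were killed at 26 weeks of age, except NZO, at 20 weeks. The labels name no engineered allele. AJ, B6, NOD and NZO are classical laboratory strains like 129S1, and CAST, PWK and WSB are derived from wild mice.

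129S1 is an old laboratory strain whose relatives gave many of the embryonic stem cells used to make knockout mice. The liver makes most plasma proteins, which pass through the endoplasmic reticulum (ER). It also makes and burns fatty acids, clears drugs and hormones through cytochrome P450, glucuronosyltransferase and sulfotransferase enzymes, and sheds acute phase proteins when injured or infected. In mice the pulsed release of growth hormone in males keeps many such genes at different levels in the 2 sexes.

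Levels are given as log2(x + 1), where x is the deposited signal on a scale near that of read counts, and a difference is 129S1 minus the mean of the 7 other strain means. Read totals recovered from the files ran from 5.84 M to 13.4 M in 129S1 and from 6.15 M to 13.998 M in the others (M, mega). All 16 129S1 libraries were nearest to their own strain, with mean correlations of 0.957 to 0.971. Of 13626 genes tested, 6252 passed an adjusted p of 0.05 (limma, Benjamini-Hochberg), which is 45.9%. They divided into 3147 higher (23.1%) and 3105 lower (22.8%), and 858 (6.3%) also differed over 2-fold, 348 higher (2.55%) and 510 lower (3.74%). The test sets 1 strain against the spread between animals of a strain, not against the spread between strains. With the other libraries as 1 group of equal weight, so that strain differences entered the spread, 3813 genes passed. That fit still counts the mice of a strain as independent, so it too is no test against the spread between strains.

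A difference of that kind was common to every founder. The same comparison made for each other strain called 5958 genes for B6 (43.7%), 6161 for NZO (45.2%), 6361 for AJ (46.7%), 6425 for NOD (47.2%), 7463 for WSB (54.8%), 8103 for PWK (59.5%) and 8697 for CAST (63.8%). Against single strains, 129S1 differed least from AJ, in 4388 genes (32.2%). It differed in 4812 from B6 (35.3%), 4785 from NZO (35.1%), 4921 from NOD (36.1%), 6569 from WSB (48.2%), 7567 from PWK (55.5%) and 8245 from CAST (60.5%). 129S1 had the highest of the 8 strain means in 1393 genes (10.2%) and the lowest in 1226 (9%). Its mean lay over 2-fold above the next strain in 26 genes (0.191%) and over 2-fold below it in 27 (0.198%), a margin chosen after the values were seen. That sum of 53 compares with 48 in AJ and 645 in CAST.

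**Figure D1:**
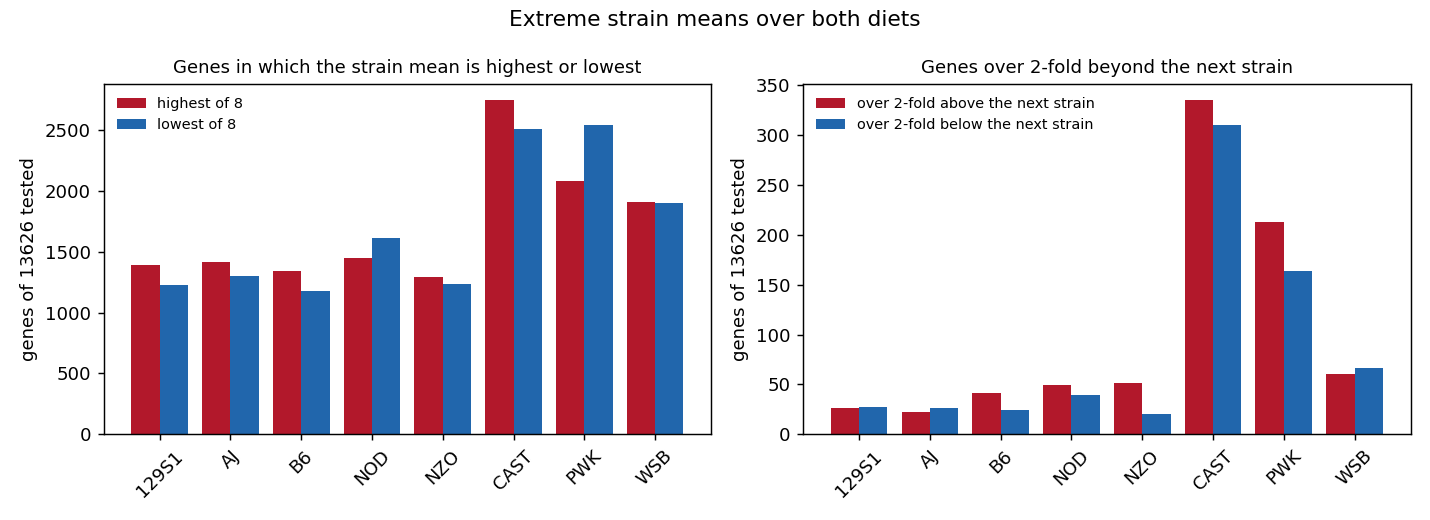
Number of the 13626 tested genes (vertical axes) in which each founder strain (horizontal axes) had the highest (red) or lowest (blue) of the 8 strain means, left, or a mean over 2-fold above or below that of the next strain, right. 129S1 had 26 and 27 genes over 2-fold beyond the next strain, and CAST 335 and 310.

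In 9 genes all 16 129S1 libraries lay outside the range of the 110 others, 3 above (0.022%) and 6 below (0.044%). AJ had 8 such genes, B6 10 and CAST 288. Gdpd3, a lysophospholipase D of the glycerophosphodiester phosphodiesterase family, was the largest of those above. Its log2 level had a lowest, median and highest value of 6.15, 6.86 and 7.53 in 129S1 and of 0.00, 0.86 and 2.52 in the other strains. The 2 sets did not come near each other, and no other strain mean passed 0.95. The difference was 6.04 ± 0.19 (SE, adjusted p = 1.3e-54).

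Wdr72, a WD repeat protein known for its part in the forming of tooth enamel, had the same pattern. Its levels were 5.54, 6.29 and 7.36 in 129S1 and 0.00, 0.00 and 2.52 in the others, with no overlap. The difference was 5.96 ± 0.15 (SE, adjusted p = 1.2e-65). Only genes with x of 10 or more in 7 libraries were tested. Gdpd3 and Wdr72 met that through 129S1 alone, so their p values are no independent support. The other gene above was the noncoding Gm12976.

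Ugt2b38, a glucuronosyltransferase that male mouse liver expresses more than female liver, was nearly absent from 129S1. Its levels were 0.00, 0.00 and 1.83 in 129S1 and 1.84, 5.86 and 9.60 in the others. The ranges met without crossing, and the strain means of the others ran from 4.10 in AJ to 8.73 in PWK. The difference was -5.73 ± 0.25 (SE, adjusted p = 2.1e-41). Other members of the Ugt2b family are near copies, so reads could be divided among them.

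Plekhb2, which encodes an endosomal protein that binds phosphatidylserine, was lower in 129S1 but still present. Its levels were 3.89, 4.47 and 5.51 in 129S1 and 6.41, 7.12 and 8.06 in the others, again without overlap. The 7 other strain means lay close together, between 6.92 and 7.56. The difference was -2.62 ± 0.07 (SE, adjusted p = 1.6e-62). The remaining genes below were Rpl15-ps3, a processed pseudogene of a ribosomal protein whose reads may come from near copies (-6.09 ± 0.21, adjusted p = 1.3e-52), and BC029722, Gm28042 and an unnamed gene.

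**Figure D2:**
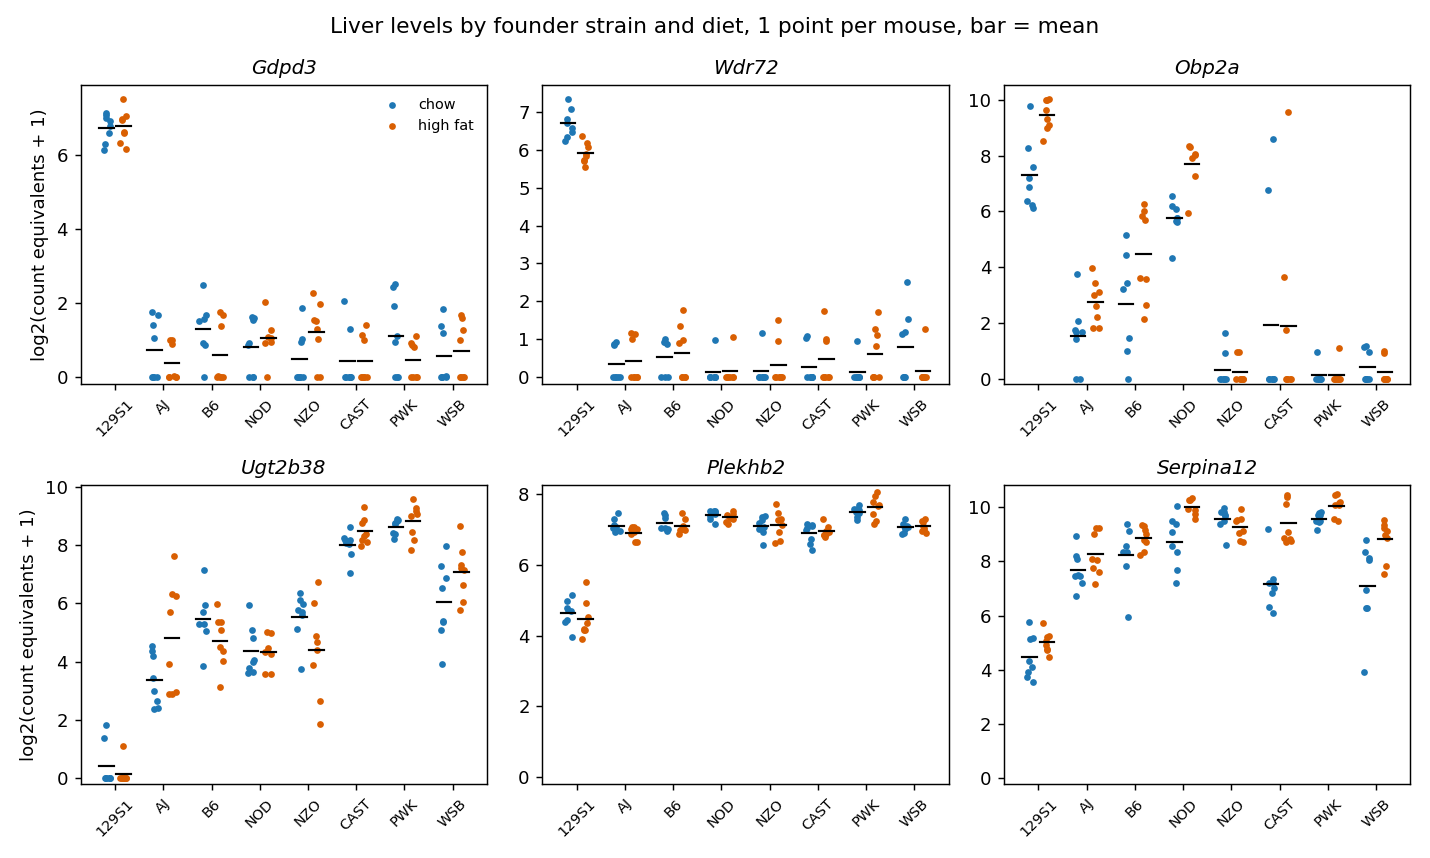
Log2 level (vertical axes) of 6 genes in each founder strain (horizontal axes), with 1 point per mouse on chow (blue) or high fat (orange) and a bar at each mean. Gdpd3 and Wdr72 stand above all other strains in 129S1, Ugt2b38, Plekhb2 and Serpina12 lie low in it, and Obp2a is high in 129S1 but also in NOD and in some CAST mice.

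Several genes of known function had a 129S1 mean over 2-fold beyond every other strain while single animals overlapped. Serpina12, or vaspin, a serpin studied as an adipokine, had levels of 3.55, 4.86 and 5.76 in 129S1 and 3.92, 9.06 and 10.5 in the others. The lowest other value was a WSB mouse, and the lowest other strain mean was 7.95. The difference was -4.02 ± 0.20 (SE, adjusted p = 1.4e-36).

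Mme, the membrane metalloprotease neprilysin, differed by -3.97 ± 0.15, with NZO next lowest at a mean of 4.92. Sugct, a mitochondrial CoA-transferase of glutarate metabolism, differed by -3.51 ± 0.10, with CAST next at 4.88. Galnt15, an enzyme that starts mucin-type sugar chains, differed by -2.74 ± 0.14. Fzd6, a Wnt receptor, differed by -2.53 ± 0.16. All 4 passed the test, with adjusted p between 1.6e-58 and 2.1e-29.

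Hsd3b3, a steroid dehydrogenase, had levels of 5.65, 7.83 and 9.32 in 129S1 and 8.19, 9.89 and 10.97 in the others, and differed by -1.95 ± 0.15 (SE). It belongs to a family of near copies. Abcc6, a liver transporter of the ABC family, had levels of 7.63, 8.75 and 9.54 in 129S1 and 9.13, 10.5 and 11.3 in the others, and differed by -1.68 ± 0.08 (SE). Mcm6, a subunit of the helicase that licenses DNA replication, differed by -1.92 ± 0.16 (SE). In each of these 129S1 was the lowest strain.

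On the high side stood Cox6b2, a cytochrome oxidase subunit best known from testis, with levels of 2.26, 4.36 and 5.22 in 129S1 and 0.00, 0.00 and 2.30 in the others. It differed by 3.77 ± 0.17 (SE, adjusted p = 7.1e-41), and like Gdpd3 it was tested only through its 129S1 libraries. Phyhip, which encodes a partner of the phytanic acid enzyme, had levels of 3.39, 4.11 and 4.80 in 129S1 and 0.00, 0.00 and 3.77 in the others. It differed by 3.54 ± 0.18 (SE, adjusted p = 8.4e-36).

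Apoa4, an apolipoprotein of triglyceride-rich particles, had levels of 14.002, 14.4 and 15.7 in 129S1 and 10.5, 12.6 and 15.4 in the others. It was highest in 129S1 by 1.37 over WSB, and differed from the mean of the others by 1.89 ± 0.17 (SE, adjusted p = 1.9e-18), by 2.26 on chow and 1.53 on high fat. Of 28 lipoprotein genes tested, 10 were higher and 8 lower, beside 23.1% and 22.8% of all genes.

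Many of the largest differences were shared with 1 or more strains. Obp2a, an odorant-binding lipocalin, had levels of 6.11, 8.75 and 10.04 in 129S1 and 0.00, 0.95 and 9.58 in the others. NOD had a mean of 6.72, the remaining strains 3.56 or less, and 8 NOD mice, 3 CAST mice and 1 B6 mouse lay inside the range of 129S1. The difference was 6.23 ± 0.40 (SE, adjusted p = 1.0e-27).

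Olfr1033, an olfactory receptor gene, was at a mean of 6.27 in 129S1 and 5.57 in B6 and at 0.66 or less elsewhere. Mettl7a3, of a methyltransferase-like family with close copies, was at 6.06 in 129S1 and 4.25 in CAST. Its neighbour in the family, Mettl7a2, was at 5.44 and 4.46 in the same strains, and all other means of both were at or under 1.47. Igsf23, of the immunoglobulin superfamily, was at 7.23 in 129S1, 6.19 in NOD and 4.77 in PWK.

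Sult1e1, the estrogen sulfotransferase, was at 8.91 in 129S1 and 9.74 in WSB, with the remaining means between 0.28 and 5.84. It differed by 5.00 ± 0.34 (SE, adjusted p = 1.3e-25). Rpl34-ps1, a ribosomal protein pseudogene, was at 7.96 in 129S1 and 8.00 in NOD and at 1.199 or less elsewhere.

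Of the low genes, C1s2, a copy of the complement protease gene C1s, was at 1.24 in 129S1, 1.48 in B6 and 1.86 in NZO, and at 8.36 or more in the 5 other strains. It differed by -5.36 ± 0.11 (SE, adjusted p = 4.5e-73). Tff3, a trefoil peptide, was at 0.56 in 129S1 and between 2.05 in NZO and 9.43 in PWK elsewhere. Moxd1, a monooxygenase-like protein, was at 2.02 in 129S1 and 1.86 in AJ and reached 12.7 in CAST. Rps18-ps3 was at 0 in all 16 129S1 libraries, at a mean of 0.36 or less in the classical strains and at 9.66 or more in the wild-derived strains.

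The genes of the unfolded protein response were higher in 129S1 than in the other strains. This pathway senses misfolded protein in the ER and induces chaperones, folding enzymes and degradation factors. Of 21 genes tested, 17 were higher and 0 lower, where 23.1% of all genes were higher and 22.8% lower, with a median difference of 0.67 beside 0.0041 over all genes. 129S1 had the highest strain mean in 14 of the 21.

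Promoters of 4 such genes are shown because they carry the ER stress element to which the pathway's transcription factors are known to bind. Each run is the 160 bases before a start site, 5′ to 3′ on the gene's strand, from RefSeq on GRCm38.p6, and capitals mark the fixed letters of the element.
Hspa5, chr2:34771930-34772089, plus strand: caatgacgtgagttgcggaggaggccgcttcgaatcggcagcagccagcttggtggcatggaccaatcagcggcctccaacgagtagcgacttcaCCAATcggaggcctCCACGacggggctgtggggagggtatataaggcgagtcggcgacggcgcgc
Hsp90b1, chr10:86705445-86705604, minus strand: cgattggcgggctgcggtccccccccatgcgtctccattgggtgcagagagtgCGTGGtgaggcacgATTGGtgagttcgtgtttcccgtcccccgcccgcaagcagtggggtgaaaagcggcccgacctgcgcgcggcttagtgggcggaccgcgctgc
Creld2, chr15:88819486-88819645, plus strand: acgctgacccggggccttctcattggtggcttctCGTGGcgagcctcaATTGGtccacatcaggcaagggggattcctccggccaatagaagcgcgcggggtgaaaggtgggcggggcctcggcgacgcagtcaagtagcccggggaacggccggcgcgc
Derl3, chr10:75893238-75893397, plus strand: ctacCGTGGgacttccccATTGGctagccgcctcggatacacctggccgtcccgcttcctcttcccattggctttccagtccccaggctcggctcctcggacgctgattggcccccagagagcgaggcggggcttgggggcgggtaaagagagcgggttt

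The letters searched were CCAAT, any 9 bases and CCACG, and for the related element II ATTGG, any 1 base and CCACG, on both strands of the 250 bases before each start site. Of the 21 listed genes 19 had a window, and 7 of these (36.8%) held a match, against 25 of 10016 tested genes (0.25%). The 7 were Hspa5, Hsp90b1, Dnajc3, Herpud1, Pdia6, Creld2 and Calr. Derl3 was not on the list. The 160 bases before Pdia4 and Sdf2l1 were also drawn, held 0 matches and are not shown. The list and the element both come from what is already known of this pathway. A higher share in the list could therefore be foreseen, and it tests neither the pathway nor the strain difference. A match is a description of these letters, not of binding.

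Several of the higher genes encode ER chaperones. Hspa5, or BiP, the main chaperone of the ER, had levels of 12.7, 13.99 and 15.2 in 129S1 and 11.7, 13.04 and 15.5 in the others. The ranges overlapped widely, and 129S1 had the highest mean of the 8 strains, at 14.06, with AJ next at 13.57. The difference was 0.96 ± 0.16 (SE, adjusted p = 3.2e-07). Against AJ alone it was 0.49 (adjusted p = 0.069) and against CAST 1.36 (adjusted p = 2.2e-08).

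Hsp90b1, the ER member of the HSP90 family, differed by 0.85 ± 0.12, Hyou1, an exchange factor for BiP, by 0.92 ± 0.17, and Dnajc3, a co-chaperone, by 0.69 ± 0.09. The disulfide isomerase Pdia4 differed by 1.04 ± 0.14, and Pdia6 by 0.26 ± 0.07. All 5 passed, with adjusted p from 1.8e-10 to 0.0022.

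Creld2, a secreted ER stress factor, had levels of 8.01, 10.6 and 12.1 in 129S1 and 6.92, 8.80 and 12.1 in the others. Most 129S1 animals lay above the other strains' median, with full overlap of the ranges. The difference was 1.64 ± 0.25 (SE, adjusted p = 1.3e-08). Sdf2l1, a partner of BiP, differed by 1.34 ± 0.23, and Manf, a factor released under ER stress, by 0.88 ± 0.17. Derl3, which helps draw misfolded proteins out of the ER, had levels of 5.28, 7.19 and 9.31 in 129S1 and 0.95, 4.78 and 8.08 in the others. It was highest in 129S1 by 1.68 over WSB and differed by 2.65 ± 0.35 (SE, adjusted p = 1.1e-10).

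Asns, asparagine synthetase, a target of the amino acid branch, differed by 2.26 ± 0.25 (SE, adjusted p = 6.6e-14). WSB had nearly the same mean, 5.64 beside 5.93, while NOD had 1.99. Ddit3, or CHOP, of the same branch, differed by 0.67 ± 0.18 (adjusted p = 0.00099), and against the 4 classical strains by 0.39 (adjusted p = 0.13). The transcripts of the regulators Xbp1 (-0.04 ± 0.12, adjusted p = 0.81) and Atf4 (-0.06 ± 0.09, adjusted p = 0.59) did not pass. The level of these transcripts does not measure splicing or translation.

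Single 129S1 animals differed in this group. The mean difference over the 21 genes ran from -0.32 (animal 8378, high fat) to 1.49 (animal 7501, high fat), with a median of 0.68. Over the 110 other libraries it ran from -0.90 to 1.61, with a median of -0.02. AJ had the next highest strain median, 0.36. By strain, 129S1 was higher in 9 of the 21 genes against AJ and 13 to 16 against each other strain, and lower in 1 each against CAST and PWK. Over all genes 129S1 was higher in 16.1% against AJ, 16.4% against B6, 19.2% against NOD, 17.1% against NZO, 30.3% against CAST, 29.2% against PWK and 24.6% against WSB. It was lower in 16.1%, 18.9%, 16.9%, 18%, 30.2%, 26.4% and 23.6% of genes, in the same order.

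**Figure D3:**
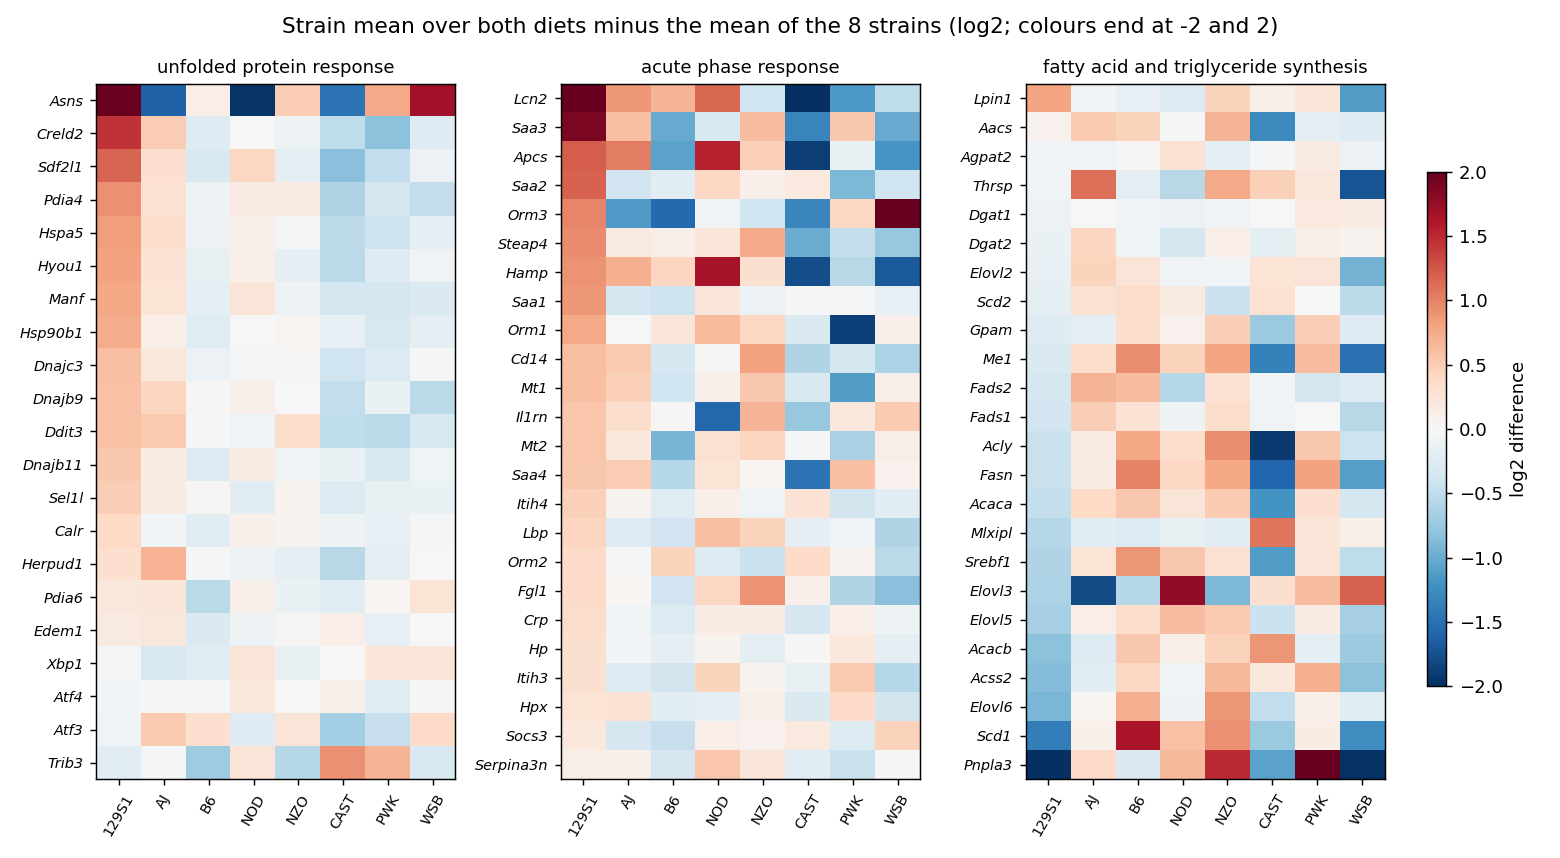
Strain means over both diets minus the mean of the 8 strains (colour, log2, red higher and blue lower) for the genes (rows) of 3 lists in the 8 strains (columns). The 129S1 column is red through most unfolded protein response and acute phase genes and blue through most genes of fatty acid synthesis, where the WSB column is also mostly blue.

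Genes for making fatty acids and triglycerides were lower in 129S1. Of 24 tested, 16 were lower and 1 higher, beside 22.8% and 23.1% of all genes. The median difference was -0.47, and 129S1 had the lowest strain mean in 7. On chow 8 were lower, beside 16.8% of all genes, and on high fat 15, beside 14.1%. By strain, 15 to 18 were lower against AJ, B6, NOD, NZO and PWK, but 8 (with 7 higher) against CAST and 4 (with 5 higher) against WSB. Scd1, the desaturase that makes oleate, had levels of 11.8, 13.5 and 14.9 in 129S1 and 12.1, 15.03 and 18.5 in the others. Most 129S1 animals lay in the lower part of the others' range. The difference was -1.59 ± 0.24 (SE, adjusted p = 3.0e-08), and against WSB alone -0.14 (adjusted p = 0.75).

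Pnpla3, a lipid droplet protein linked to fatty liver, had levels of 0.00, 1.47 and 2.36 in 129S1 and 0.00, 3.42 and 8.84 in the others. The mean of WSB, 1.47, was close to the 1.37 of 129S1. The difference was -2.36 ± 0.31 (SE, adjusted p = 1.6e-10).

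The elongases Elovl6 (-1.04 ± 0.17) and Elovl5 (-0.76 ± 0.12), the acetyl-CoA synthetase Acss2 (-0.99 ± 0.17) and the carboxylase Acacb (-0.95 ± 0.15) were lowest in 129S1, with adjusted p from 2.5e-08 to 3.8e-07. So was Mlxipl, or ChREBP, the sugar-sensing transcription factor of the pathway (-0.64 ± 0.10, adjusted p = 2.2e-08). Srebf1, its insulin-responsive counterpart, differed by -0.69 ± 0.16 (adjusted p = 0.00023), Acaca by -0.54 ± 0.13 (adjusted p = 0.00036), Fasn by -0.51 ± 0.16 (adjusted p = 0.0073) and Acly by -0.50 ± 0.15 (adjusted p = 0.0046). For these 4 CAST was lower still, and with the other libraries as 1 group Fasn (adjusted p = 0.18) and Acly (adjusted p = 0.17) did not pass. Me1, malic enzyme, did not pass (-0.34 ± 0.17, adjusted p = 0.095), but differed by -0.93 (adjusted p = 6.0e-05) against the classical strains. Insr, the insulin receptor, was lowest in 129S1 (-0.52 ± 0.05, adjusted p = 8.6e-15).

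The mean difference over the 24 genes was below 0 in every 129S1 library, from -0.86 to -0.18. The other 110 libraries ran from -1.06 to 1.36. Strain medians were -0.62 in WSB, -0.49 in 129S1 and -0.41 in CAST, and between 0.08 and 0.26 in the remaining strains.

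Of 32 genes for burning fatty acids and making ketones, 14 were higher and 2 lower, beside 23.1% and 22.8% of all genes. Their median was 0.20. Against the 4 classical strains 7 were higher, where 18.8% of all genes were higher and 19.3% lower. Acadm, the medium-chain acyl-CoA dehydrogenase, was highest in 129S1 (0.50 ± 0.07, adjusted p = 2.9e-10). Acadvl, its very-long-chain counterpart, differed by 0.48 ± 0.05, with a mean of 8.75 in CAST beside 11.40 or more in all other strains, and by 0.03 (adjusted p = 0.62) against the classical strains. Cyp4a14, a fatty acid hydroxylase induced by the receptor PPAR alpha, differed by 2.35 ± 0.48 and by 0.09 (adjusted p = 0.91) against the classical strains. Vnn1, pantetheinase, differed by 1.21 ± 0.23 and by 0.03 (adjusted p = 0.91). Cyp4a31 (2.72 ± 0.34, adjusted p = 3.2e-11) lay near B6 and NZO. Fgf21, a fasting hormone, differed by 1.38 ± 0.34 (adjusted p = 0.00039), and by 0.50 (adjusted p = 0.23) against the classical strains. Ehhadh, of peroxisomal oxidation, was lowest in 129S1 (-0.59 ± 0.15, adjusted p = 0.00048).

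Acute phase genes, whose liver products rise in plasma during inflammation, were higher in 129S1. Of 24 tested, 17 were higher and 0 lower, beside 23.1% and 22.8% of all genes. Their median was 0.63, and 129S1 had the highest strain mean in 11. On chow 11 were higher, beside 15.2% of all genes, and on high fat 6, beside 15.4%. By strain, 16 were higher against B6, 16 against CAST, 15 against WSB and 13 against PWK, but 6 against AJ, 6 against NZO and 4 against NOD. Lcn2, a lipocalin that binds bacterial siderophores, had levels of 9.70, 12.3 and 14.3 in 129S1 and 4.28, 10.5 and 14.9 in the others. The ranges overlapped through most of their length. The difference was 2.51 ± 0.50 (SE, adjusted p = 1.4e-05), and it did not pass against AJ (1.33, adjusted p = 0.12), B6 (1.51, adjusted p = 0.070) or NOD (1.05, adjusted p = 0.22) alone.

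The serum amyloid A genes differed by 0.99 ± 0.29 (Saa1), 1.34 ± 0.34 (Saa2) and 0.61 ± 0.08 (Saa4), with adjusted p of 0.0036, 0.00063 and 1.1e-09. Saa1 and Saa2 are near copies. Apcs, serum amyloid P, differed by 1.39 ± 0.25 (adjusted p = 1.8e-06), with NOD higher. Of the orosomucoids, Orm1 differed by 0.87 ± 0.22 and Orm3 by 1.12 ± 0.27, the latter with an adjusted p of 0.068 when the other libraries formed 1 group.

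Saa3, made by macrophages and hepatocytes in inflammation, ranged from 7.14 to 13.7 in 129S1 and from 3.93 to 14.3 in the others. It differed by 2.15 ± 0.57 (adjusted p = 0.00096). Without the 3 129S1 animals with the most Saa3 (7960 on chow, 7501 and 7456 on high fat) it differed by 1.41 (adjusted p = 0.056), and 9 of the 24 acute phase genes were higher in place of 17, beside 19.4% of all genes higher and 18.5% lower. Animals 7960 and 7501 also had 2 of the 3 largest acute phase means in 129S1 and the 2 largest unfolded protein response means. The 3 animals were chosen by Saa3 among 129S1 alone, and the other strains kept all of theirs. A smaller difference in Saa3, and in genes that rise with it, could therefore be foreseen. The part of these animals' state in the result was not tested. Against the classical strains 11 acute phase genes were higher. In these bulk livers, fewer cells of a type and less RNA per cell cannot be told apart.

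**Figure D4:**
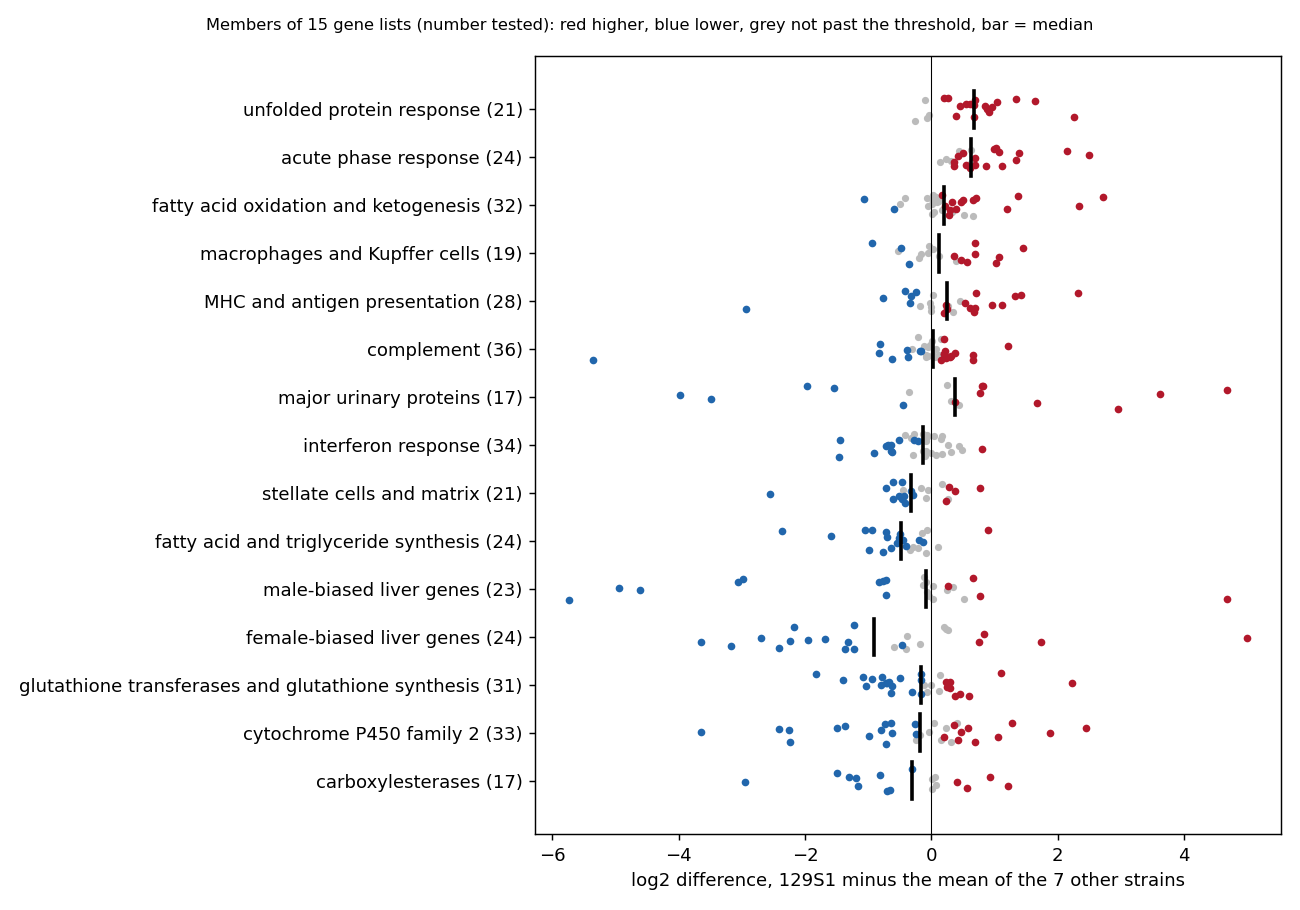
Log2 difference of 129S1 from the mean of the 7 other strains (horizontal axis) for the tested members of 15 gene lists (rows, number of members in brackets). Each point is 1 gene, red where higher, blue where lower and grey where it did not pass, and bars mark medians, which run from 0.67 for the unfolded protein response to -0.91 for female-biased genes.

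Female-biased liver genes, here measured in males, were lower in 129S1 than in the mean of the others. Of 24 tested, 13 were lower and 4 higher, beside 22.8% and 23.1% of all genes. Their median was -0.91, and 129S1 had the lowest mean in 7. By strain, 14 were lower against NZO, 13 against CAST and 10 each against AJ and B6, with 3 or 4 higher. Lower and higher members numbered 5 and 5 against NOD, 8 and 7 against PWK and 4 and 5 against WSB. Cyp2b9, a P450 of female liver, had levels of 0.00, 0.00 and 1.66 in 129S1 and 0.00, 1.89 and 11.9 in the others. The wild-derived strains were about as low as 129S1 (0.45 to 0.61), and AJ had a mean of 9.55. The difference was -3.65 ± 0.35 (SE, adjusted p = 2.5e-16).

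Cyp3a41a (-3.17 ± 0.40), Cyp3a44 (-2.70 ± 0.31), Cyp2c69 (-2.41 ± 0.36) and Cyp2c40 (-2.24 ± 0.22), P450s of the same class, were also lowest in 129S1. These families have close copies. The sulfotransferase Sult3a1 differed by -2.17 ± 0.27, with CAST at 13.55 and every other mean at or under 3.17, and by -0.64 (adjusted p = 0.11) against the classical strains. Sult1e1, above, went the other way.

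Of 23 male-biased genes, 4 were higher and 9 lower than the mean of the others, beside 23.1% and 22.8% of all genes. The direction depended on the strain. Higher and lower members numbered 10 and 3 against AJ, 9 and 5 against B6 and 10 and 7 against NZO. They numbered 2 and 9 against NOD, 3 and 15 against CAST, 3 and 17 against PWK and 1 and 15 against WSB. Tff3, Moxd1 and Ugt2b38 were among the low ones, as was Serpina1e, an alpha-1-antitrypsin copy (-3.06 ± 0.24, adjusted p = 3.0e-21). In the growth hormone axis, Igf1, the hormone the liver releases in response, was lowest in 129S1, with levels of 11.2, 11.9 and 12.3 beside 11.4, 12.2 and 13.03. It differed by -0.37 ± 0.07 (adjusted p = 5.2e-06). Cish, an inhibitor induced by growth hormone, differed by -1.24 ± 0.39 (adjusted p = 0.0060), and by -0.89 (adjusted p = 0.074) against the classical strains. Stat5b, the pathway's transcription factor, differed by -0.21 ± 0.07 (adjusted p = 0.0066), and without the 3 animals with the most Saa3 by -0.16 (adjusted p = 0.083). Igfbp3, an IGF carrier, was higher (0.73 ± 0.11, adjusted p = 2.7e-08). Of 18 genes in this list, which also holds the renin-angiotensin system, 2 were higher and 6 lower. Ren1, renin, had a mean of 7.99 in 129S1, 7.64 in NZO, 0.84 in B6 and 0.53 in AJ. Some strains, 129S1 among them, carry the near copy Ren2, so reads could be divided between copies.

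Major urinary proteins carry pheromones and come from a cluster of near-identical genes, so single members are uncertain. Of 17 tested, 8 were higher and 5 lower, beside 23.1% and 22.8% of all genes. Mup1 was at 18.1 in 129S1 and 17.9 in NOD and at 16.0 or less elsewhere (4.68 ± 0.25), and Mup10 differed by 2.96 ± 0.15. Mup19 (-3.99 ± 0.30) and Mup18 (-3.49 ± 0.15) were lower, with 129S1 among AJ, NOD and NZO. The sum over 18 family members ran from 480690 to 1146840 count equivalents in 129S1, inside the 91976 to 1959260 of the others.

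Drug-metabolizing families held members in both directions, where 23.1% of all genes were higher and 22.8% lower. In P450 family 2, 10 were higher and 14 lower of 33. Cyp2c39 (2.46 ± 0.21), Cyp2c29 (1.06 ± 0.20) and Cyp2e1, the ethanol-inducible form (0.36 ± 0.10), were higher. In families 1 and 3, 4 were higher and 7 lower of 15. Cyp3a11, the main drug-oxidizing P450 of mouse liver, had levels of 6.98, 9.38 and 11.2 in 129S1 and 4.85, 11.8 and 15.1 in the others, and differed by -2.17 ± 0.27 (adjusted p = 1.5e-11). Only WSB had a lower mean, 8.96. Cyp3a25 was lowest in 129S1 (-1.16 ± 0.10) and Cyp3a13 highest (0.88 ± 0.08).

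Of 27 glucuronosyl- and sulfotransferases, 6 were higher and 11 lower, beside 23.1% and 22.8% of all genes. Ugt3a1 had levels of 6.65, 7.76 and 8.68 in 129S1 and 8.05, 9.84 and 10.8 in the others, and was lowest in 129S1 (-1.86 ± 0.08, adjusted p = 1.7e-44). Its neighbour Ugt3a2 differed by 1.23 ± 0.07, against the classical strains by -0.17 (adjusted p = 0.015), with the 3 wild-derived strains at 7.59 to 8.29. Of 31 glutathione genes, 9 were higher and 17 lower, with Gstm3 at 2.23 ± 0.23 and Mgst2 at -1.82 ± 0.17. Mgst2 was at a mean of 0.96 or less in all classical strains and WSB. Of 17 carboxylesterases, 4 were higher and 9 lower. Ces1d (-1.49 ± 0.25) and Ces1f (-1.20 ± 0.15) were lowest in 129S1, Ces2h differed by -2.94 ± 0.19 with the classical strains alike, and Ces2c was higher (1.21 ± 0.20). Of 23 serpin A genes, 6 were higher and 10 lower, with Serpina11 at 1.28 ± 0.08.

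Immune genes also went both ways, where 23.1% of all genes were higher and 22.8% lower. Of 28 genes of antigen presentation, 13 were higher and 6 lower, but 129S1 was the highest or lowest strain in 0 of them. Class I H2-K1 differed by 1.12 ± 0.07, behind B6, and H2-Q7 by 1.42 ± 0.12. H2-Q2 differed by -2.94 ± 0.15, with AJ lower. Class II H2-Eb1 (2.32 ± 0.22), H2-Ab1 (0.96 ± 0.19) and H2-Aa (0.71 ± 0.19) were higher. These genes differ in sequence between strains, so their levels are uncertain.

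Of 34 interferon-response genes, 1 was higher and 11 lower, with a median of -0.13. Bst2, or tetherin, which holds budding virus to the cell, had levels of 8.29, 8.73 and 9.41 in 129S1 and 8.90, 9.59 and 10.8 in the others, and was lowest in 129S1 (-0.91 ± 0.07, adjusted p = 2.6e-22). Oasl1 (-1.46 ± 0.18), Ifi27 (-0.69 ± 0.08) and Rsad2 (-0.64 ± 0.17, adjusted p = 0.074 with the other libraries as 1 group) were lower, and Xaf1 was higher (0.81 ± 0.17). By strain, lower and higher members numbered 27 and 2 against NZO, 22 and 3 against PWK and 20 and 1 against B6. They numbered 16 and 1 against AJ, 8 and 5 against WSB, 3 and 11 against NOD and 5 and 24 against CAST. Against the 4 classical strains together 18 were lower, beside 19.3% of all genes. Of 23 inflammasome and caspase genes, 5 were higher and 7 lower, near the 23.1% and 22.8% of all genes. Nlrp12, a restraining NOD-like receptor, was lowest with NZO (6.13 and 6.16) and differed by -2.05 ± 0.22, and Casp8 was highest with B6 (0.66 ± 0.08), and against the classical strains differed by 0.16 (adjusted p = 0.11).

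Of 19 macrophage genes, 8 were higher and 3 lower, beside 23.1% and 22.8% of all genes. Against the classical strains 2 were higher, beside 18.8%. Adgre1, the F4/80 antigen, had levels of 6.62, 7.60 and 9.33 in 129S1 and 4.84, 6.78 and 8.61 in the others, and differed by 1.07 ± 0.14 (adjusted p = 2.7e-10). The Kupffer cell receptors Timd4 (1.02 ± 0.16) and Marco (1.46 ± 0.29) were higher, with Marco at 0.34 (adjusted p = 0.25) against the classical strains. Csf1r differed by 0.47 ± 0.11, by 0.16 (adjusted p = 0.29) against the classical strains. Lgals3 (-0.49 ± 0.17, adjusted p = 0.012) and Trem2 (-0.94 ± 0.24, adjusted p = 0.00054), genes of lipid-laden macrophages, were lower. On chow, Trem2 was at 0 in every 129S1 animal but 7546 (0.94). Lgals3 had an adjusted p of 0.076 without the 3 animals with the most Saa3 and 0.080 with the other libraries as 1 group. The summed signal of the 19 genes ran from 2009 to 6542 in 129S1 and from 924 to 8097 in the others. The part of macrophage number in these results was not tested.

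Of 21 stellate cell and matrix genes, 4 were higher and 11 lower, with a median of -0.32. By strain, higher and lower members numbered 0 and 17 against WSB, 2 and 12 against B6 and 4 and 9 against CAST. They numbered 2 and 1 against AJ, 3 and 3 against NOD, 5 and 4 against NZO and 7 and 3 against PWK. On chow 10 were lower, beside 16.8% of all genes, and on high fat 2, beside 14.1%. No gene of the list passed for a diet change that differed from the other strains. The collagens Col3a1 (-0.72 ± 0.17) and Col1a2 (-0.52 ± 0.15) were lower, with differences of -1.06 and -0.86 on chow and -0.38 and -0.18 on high fat. Col1a2 had an adjusted p of 0.067 with the other libraries as 1 group. Col5a2 differed by -2.55 ± 0.18 with WSB (11.6) and PWK (9.75) far above the rest. Lum differed by 0.77 ± 0.16 and by 0.08 (adjusted p = 0.70) against the classical strains, and Reln by 0.38 ± 0.07. Against the classical strains 4 genes of the list were lower, and without the 3 animals with the most Saa3, 5. Of 16 endothelial genes, 3 were higher and 4 lower, near the 23.1% and 22.8% of all genes. Stab2, a scavenger receptor of the sinusoid, was highest in 129S1 (0.55 ± 0.06), while Clec4g (-0.91 ± 0.08) was lowest and Lyve1 (-1.52 ± 0.19) next to lowest.

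The liver label was checked against the markers. Hepatocyte genes summed to 937813 to 1603410 count equivalents in 129S1, inside the range of the others, and 0 of the 22 was at 0 in all 129S1 libraries. Of other tissues, skeletal and cardiac muscle genes summed to at most 5.89, with 6 of 13 at 0 in all 129S1 libraries. Lymphocyte genes summed to between 54.7 and 154.9. Pancreas genes reached 1450 in 1 129S1 library, above the 8.64 to 298.7 of the others, beside a 129S1 median of 136.4. Adipose genes ran from 3686 to 14114, inside the 348 to 28380 of the others.

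Of 36 genes of the urea cycle and amino acid breakdown, 7 were higher and 14 lower, beside 23.1% and 22.8% of all genes. Without the 3 animals with the most Saa3, 9 were lower, beside 18.5%. On chow 14 were lower, beside 16.8%, and on high fat 4, beside 14.1%. Hal, which starts histidine breakdown, was lowest in 129S1 (-0.89 ± 0.11, adjusted p = 3.7e-11). Gls2, the liver glutaminase, differed by -0.57 ± 0.09, while Glul, which runs the reverse reaction, was highest in 129S1 (0.54 ± 0.09, adjusted p = 4.2e-07). Arg1, arginase, differed by -0.16 ± 0.05 (adjusted p = 0.012), without NZO by -0.11 (adjusted p = 0.099), and with the other libraries as 1 group by -0.16 (adjusted p = 0.071). Of 16 heat shock and chaperone genes, 5 were higher and 1 lower. The lower gene, Hspb1, a small heat shock protein, was lowest in 129S1 (-1.27 ± 0.20, adjusted p = 3.6e-08). On chow 9 were higher, beside 15.2% of all genes, and on high fat 0, beside 15.4%. No gene of this list or the amino acid list passed for a diet change that differed from the other strains.

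Genes known to vary between laboratory strains were listed whatever their values. Nnt, the mitochondrial transhydrogenase partly deleted in B6, was at 9.55 in 129S1 and 8.63 in B6, and 129S1 did not differ from the mean of the others (0.00 ± 0.05, adjusted p = 1.00). Hc, complement C5, was at 13.3 in 129S1 beside 11.3 in AJ and 11.4 in NOD, which carry a null allele. Glo1, glyoxalase, duplicated in AJ, was at 12.5 in AJ and 12.0 in 129S1, with the rest at 11.61 or less. Casp4, or caspase 11, which strains related to 129S1 are known to lack as a protein, was lowest in 129S1, at 3.56 beside 3.83 to 4.93 (-0.82 ± 0.22, adjusted p = 0.0011). Mx1, a resistance gene mutated in most laboratory strains, was at 2.62 in 129S1 and highest in NZO at 6.70. Slc11a1, the Bcg and Ity resistance gene, differed by 0.40 ± 0.11 and by 0.10 (adjusted p = 0.50) against the classical strains. Kitl, stem cell factor, differed by 1.25 ± 0.16.

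On chow 4364 genes passed (32%), and on high fat 4018 (29.5%). In the same direction 2806 passed on both, which is 64.3% of those on chow and 69.8% of those on high fat. Within 129S1 the diet changed 227 genes (1.67%), with 186 higher on high fat and 41 lower, and over the mean of the 7 others, with 110 libraries behind it, 2926 (21.5%). The change in 129S1 differed from that in the others in 2 genes (0.0147%), and 840 were at an unadjusted p under 0.05.

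Mogat1, a monoacylglycerol acyltransferase that rises in fatty livers, had levels of 0.00, 0.00 and 1.06 on chow and 1.81, 3.80 and 4.93 on high fat in 129S1. The diets did not overlap. The rise was 3.28 ± 0.38 beside 1.25 ± 0.14 in the mean of the others, a difference of 2.02 ± 0.40 (SE, adjusted p = 0.013). B6 and NZO also rose by their means, from 2.26 to 4.89 and from 2.28 to 6.00, and against the 4 classical strains the difference was 1.28 (adjusted p = 0.77). With a pseudocount of 5 it was 0.84 (adjusted p = 0.16). Without animal 8393, 7441 or 7654, all on high fat, the adjusted p was 0.055, 0.059 and 0.090.

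Atp6v0d2, a subunit of the proton pump of lysosomes, had levels of 0.00, 1.65 and 2.52 on chow and 1.81, 3.43 and 5.43 on high fat in 129S1. The diets overlapped in part. The change was 2.04 ± 0.45 in 129S1 and -0.51 ± 0.17 in the others, a difference of 2.55 ± 0.48 (SE, adjusted p = 0.0073). Means fell from 3.12 to 1.77 in NOD and from 2.57 to 1.17 in WSB. Against the classical strains the difference was 2.28 (adjusted p = 0.13), and without high fat animal 8393, 2.27 (adjusted p = 0.055). Without that animal 0 genes passed, with 664 at an unadjusted p under 0.05.

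Next in order of p were 3 genes that did not pass. Tusc3, of the oligosaccharyl transferase of the ER, differed by 0.68 ± 0.15 (adjusted p = 0.079), and by 0.73 (adjusted p = 0.029) without chow animal 7945. Anp32e, a histone chaperone, differed by -0.41 ± 0.10 (adjusted p = 0.11), and Hsp90aa1, the inducible cytosolic HSP90, by -0.84 ± 0.20 (adjusted p = 0.13), or by -1.02 (adjusted p = 0.037) without the 3 animals with the most Saa3.

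**Figure D5:**
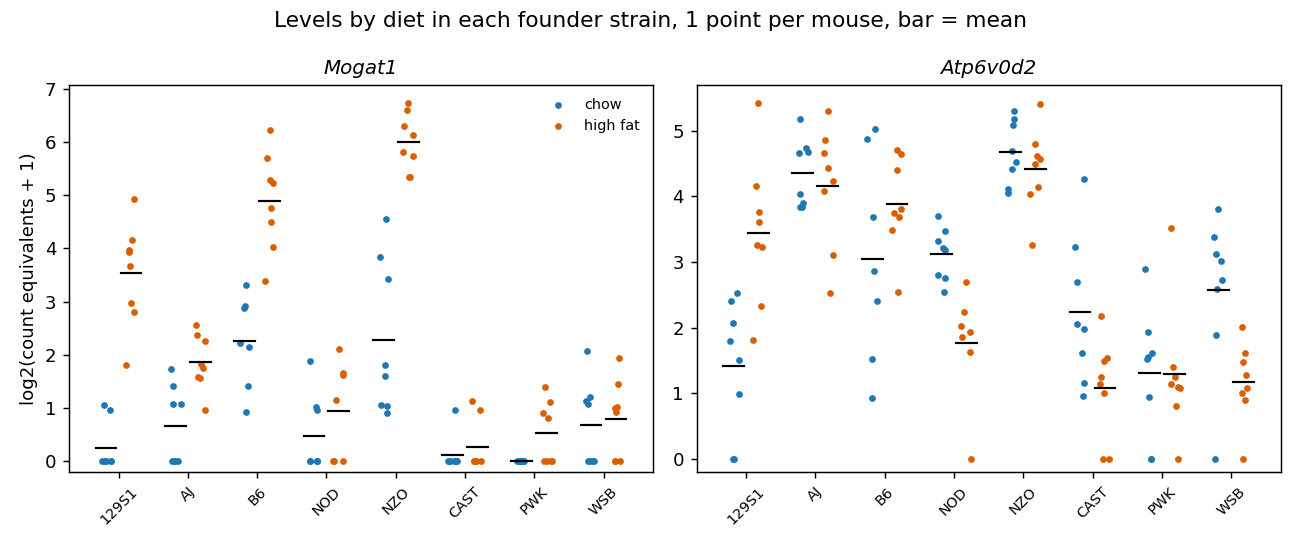
Log2 level (vertical axes) of Mogat1 and Atp6v0d2 in each founder strain (horizontal axes), with 1 point per mouse on chow (blue) or high fat (orange) and a bar at each mean. In 129S1 the mean of Mogat1 goes from 0.25 to 3.53 and that of Atp6v0d2 from 1.41 to 3.45, and B6 and NZO also have higher Mogat1 on high fat.

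Genes that differed over 2-fold lay next to each other on chromosomes more often than other genes did. Of 770 such genes with a position, 177 (23%) had a like neighbour among the tested genes, against 10.2% of other genes. Families of copies are part of that count. The 5 neighbours Cyp3a41a, Cyp3a44, Cyp3a11, Cyp3a25 and Cyp3a59 on chromosome 5 held 4 lower and 1 higher. On chromosome 9, Wdr72 was higher and its 3 neighbours Gm16551, Gm20649 and Onecut1 lower. Onecut1, a hepatocyte transcription factor, differed by -1.06 ± 0.31 (adjusted p = 0.0030), and by -0.66 (adjusted p = 0.11) against the classical strains. Of protein-coding genes 4.73% passed with over 2-fold, and of processed pseudogenes 27.2%, whose reads may come from their parent genes.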

How the data were processed

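Liver poly(A) mRNA of 128 founder mice was sequenced, with 8 males per strain and diet. The founder table holds 24965 genes as signal that the authors normalized so that the upper quartile is 1 in every library; the submitters' name for it says that reads were aligned to a genome of each animal's own strain. CASAVA 1.8.0, Bowtie 0.12.8, RSEM 1.2.1 and the build NCBIM37 (mm9) are named, per the submitters' processing notes. Steps in the low values gave whole reads for 83.5% of values (81.2 to 85.6% per library, within 0.1 of a whole number, below 20.5 reads), so no count test was run. Recovered totals approximate depth.

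The deposited signal was multiplied by 114.429 (count equivalents), 1 was added and log2 was taken. Differences are on this scale, which understates those of low genes. The filter on low values asked for 10 count equivalents in 7 libraries and left 13626 genes. limma 3.58.1 in R 4.3.3 with a mean-variance trend was fitted to 126 libraries in 16 groups of strain and diet, with Benjamini-Hochberg adjustment and a threshold of 0.05. The 2 libraries left out appear exchanged. Each animal gave 1 library. The code was tested on simulated data. Symbols came from a GENCODE table, which matched 22760 genes, and promoters from RefSeq (GRCm38.p6). Strain contrasts share the 129S1 libraries. Named genes were the largest differences, with and without overlap, the smallest p of the diet difference, up to 4 members of each list with the smallest p, and the strain polymorphisms, plus genes chosen after their values were seen (BC029722, Gm12976 and Gm28042, and further members of the lists). The members and lists were chosen with earlier results of these data known. Alternatives covered the pseudocount, filter, scaling, strains, model and each 129S1 animal in turn.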

Additional observations from a re-analysis of the deposited data

Results flagged for a closer look

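In each diet group of 8 129S1 animals, the highest and lowest values of the described genes were tested for a gap to the others by Dixon's critical value for 8 samples. Chance marks about 1 in 20 groups, and 24 values in 290 groups were marked. High fat animal 8393 held 9 of them. It was lowest in Ces1f (7.63), Cyp2c29 (10.16), Ehhadh (9.68), Gstm3 (5.25), Me1 (8.61), Mup1 (17.51), Mup10 (16.98) and Ren1 (5.43), and highest in Ugt2b38 (1.11), where the others were at 0.

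Chow animal 7471 was highest in Elovl5 (11.29) and Me1 (10.01) and lowest in Lcn2 (9.70) and Sult1e1 (5.68). Chow animal 8563 was lowest in Cish (3.65) and highest in Mup18 (10.05) and in Cyp3a44 (0.87), where the others were at 0. Chow animal 8144 was lowest in Glo1 (11.33), Nnt (9.12) and Ugt3a2 (10.3). High fat animal 7441 was highest in Lgals3 (6.06) and Slc11a1 (7.14). High fat animal 7456 was lowest in Nnt (9.35) and highest in Olfr1033 (6.70). Chow animal 7546 was highest in Trem2 (0.94), where the others were at 0.

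The change with diet differed between 129S1 and the other strains in Atp6v0d2, by 2.55, and in Mogat1, by 2.02, both by a limma contrast of the difference. Both lost the call without animal 8393 and against the classical strains.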

How the results depend on the processing

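Of 6252 genes called, 739 (302 higher, 437 lower) passed a test against a 1.5-fold difference, and 3813 (1922 higher, 1891 lower) passed with the other libraries as 1 group. Within high fat alone 4018 passed. Leaving out each 129S1 animal gave 5828 to 6226 calls (2927 to 3119 higher, 2901 to 3126 lower). Scaling to the total moved the share of calls that were higher from 50.3% to 58.9% and the median of all genes from 0.004 to 0.039.

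Against the 4 classical strains, where 12935 genes were tested, 36 genes set 129S1 fully apart. The 9 such genes found against all 7 other strains are no like count. With the libraries of CAST, PWK and WSB left out, fewer libraries can overlap and full separation is easier. Against the classical strains 18.8% of all genes were higher and 19.3% lower. Members higher in that comparison were 7 for fatty acid oxidation, 11 for the acute phase and 2 for macrophages. Members lower were 18 for the interferon response, 7 for glucuronosyl- and sulfotransferases, 6 for serpins, 4 for P450 families 1 and 3 and 4 for stellate cells. Leaving out the 3 129S1 animals with the most Saa3 was chosen after seeing the data and removed no animal of another strain. It left 9 acute phase genes higher, and 9 amino acid and 5 matrix genes lower, beside 19.4% and 18.5% of all genes.

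The 2 calls of the diet difference became 7 with a pseudocount of 5, 6 with no filter, 1 with a filter of 50, 8 without 8 loosely correlated libraries (added after seeing the data), 0 against the classical strains, and 0 to 4 when an animal was left out. The sign turned for Xbp1 (0.079) and Ugt3a2 (-0.17) against the classical strains. Nnt, at no difference, turned to -0.00042 with a pseudocount of 5, -0.0057 with median of ratios scaling, -0.00089 with the 2 exchanged libraries, -0.017 against the classical strains, -0.0012 in an additive model and -0.0088 with equal library weight, and ran from -0.010 to 0.023 without single animals. The causes were not tested. No paired analysis was possible because each animal number is unique to 1 group. Depth limits genes near 0, where 1 read moves a level widely.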
